A study of Mus musculus with 13 samples.

Results

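Interferon-response genes are the genes that cells switch on when interferon binds its receptors, and 35 of them, a hand-picked list given by symbol, were followed here through sorted cells of the neonatal mouse heart. All 35 matched a gene ID of the deposited table, which holds 55487 gene IDs. Pacemaker cells (PC), sorted from the sinoatrial node that sets the heartbeat, were set against right atrial cardiomyocytes (RACM), the neighbouring working muscle. Both came from neonatal hearts with the Hcn4-GFP/Myh6-mCherry genotype, in which green fluorescence marks cells with Hcn4 and red marks heart muscle with Myh6. Neither cell type received any treatment named in the labels. Each library came from a pool of 8 to 10 hearts. There were 3 PC and 3 RACM libraries, numbered p0, p2 and p4 in both, and the labels do not say what these numbers stand for.

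Interferons are secreted warning proteins. Type I interferons bind the receptor made of Ifnar1 and Ifnar2, whose kinases Jak1 and Tyk2 pass the signal to transcription factors, Stat2 among them. Stat2 acts with Irf9 at a DNA element called the ISRE, while type II interferon acts on another element, the GAS. The genes so induced encode sensors of foreign nucleic acid, enzymes that degrade or block viral RNA, and membrane proteins that hinder virus entry or release. Many cells keep some of these genes at a low level without infection, and macrophages are known for a high one.

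The promoter sequences of many of these genes hold a match to the ISRE, and whether interferon acts through it was not tested. RefSeq promoter windows (build GRCm38.p6, from 250 bases before to 50 after the start of transcription) matched 28 of the 35 genes by symbol. The ISRE was searched on both strands as TTTC, any 2 bases and TTTC, and 15 of the 28 genes held it in a window (53.6%), against 3.99% of 27025 genes with a window. Some genes have more than 1 window, and a match in any of them counted. The GAS, searched as TTCNNNGAA, was found for 9 of the 28 genes (32.1%), against 9.55% of all genes. Neighbouring matches of the ISRE can overlap, as they do in Isg15, Oas1a and Gbp3. The genes were listed for their known response to interferon, so these shares are a description. Stretches upstream of the start are printed for Oas1a and Gbp3, which were lower in PC, and for Ifit1, Isg15 and Ifitm2, which did not pass the test below. Capitals mark the ISRE matches.
Oas1a (chr5:120907526-120907570, minus strand): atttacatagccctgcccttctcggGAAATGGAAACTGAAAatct
Gbp3 (chr3:142559974-142560039, plus strand): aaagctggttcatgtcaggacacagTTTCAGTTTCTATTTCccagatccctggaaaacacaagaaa
Ifit1 (chr19:34640760-34640838, plus strand): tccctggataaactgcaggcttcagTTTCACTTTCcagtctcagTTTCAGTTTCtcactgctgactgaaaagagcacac
Isg15 (chr4:156200850-156200921, minus strand): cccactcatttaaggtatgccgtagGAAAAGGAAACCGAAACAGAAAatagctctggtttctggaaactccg
Ifitm2 (chr7:140955973-140956032, minus strand): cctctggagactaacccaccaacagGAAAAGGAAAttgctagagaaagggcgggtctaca
The ISRE was found for 4 of the 7 genes with a window that were lower in PC and for 11 of the 21 other genes with a window (57.1% and 52.4%).

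Values are CPM, counts scaled to a common library size after TMM correction. Where 3 values are given for a cell type, they stand in the order p0, p2, p4. Total counts ran from 18371816 to 22290996 in PC and from 14141151 to 19555932 in RACM. The labelled cell types bore their markers. The 7 pacemaker markers, Hcn4 of the sort among them, summed to 4385 CPM or more in each PC library and to 126 CPM or less in each RACM library. The 5 markers of working atrial muscle summed to 627, 516 and 502 CPM in PC, against 4945, 4003 and 5236 CPM in RACM. Summed markers of heart muscle in general lay between 112000 and 119700 CPM in PC, against sums of 103700, 101000 and 71620 CPM in RACM. Markers of several other cell types had their highest sum in RACM p4. The 18 macrophage markers summed to 44.0, 25.1 and 67.6 CPM in PC, and to 261, 643 and 1104 CPM in RACM. The 12 fibroblast markers summed to 1018, 1102 and 2510 CPM in PC, but to 2087, 4457 and 12840 CPM in RACM. Epicardial markers summed to 3.96, 2.49 and 12.3 CPM in PC, against 12.2, 25.9 and 90.4 CPM in RACM, and endothelial markers to 97.1, 61.0 and 144 CPM in PC, against 148, 145 and 217 CPM in RACM. The sum of smooth muscle and pericyte markers was higher in PC on average. It was 678, 438 and 720 CPM in PC, against 217, 310 and 685 CPM in RACM. Acta2 made up most of it in PC, at 482, 302 and 534 CPM, against 82.3, 99.4 and 291 CPM in RACM. All PC libraries lay above all RACM libraries for Acta2, Myh11, Cnn1 and Cspg4, and below them for Pdgfrb, Rgs5, Kcnj8 and Notch3. Tagln and Mylk overlapped. No macrophage marker was at 0 in all 3 libraries of either cell type. Of 14 markers of other leukocytes, 12 were at 0 in every PC library, and their sum reached 10.6 CPM in RACM p4. In sorted pools, fewer cells of a type and less RNA per cell cannot be told apart.

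The summed level of the 35 interferon-response genes was 173, 162 and 213 CPM in PC, against 235, 373 and 475 CPM in RACM. All PC sums lay below the RACM sums, though PC p4 (213 CPM) came near RACM p0 (235 CPM). The RACM sums rose in the order p0, p2, p4. So did the RACM sums of the macrophage, other leukocyte, fibroblast, epicardial, smooth muscle and pericyte, and pacemaker markers. The part of any of these cells in this order was not tested.

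**Figure D1:**
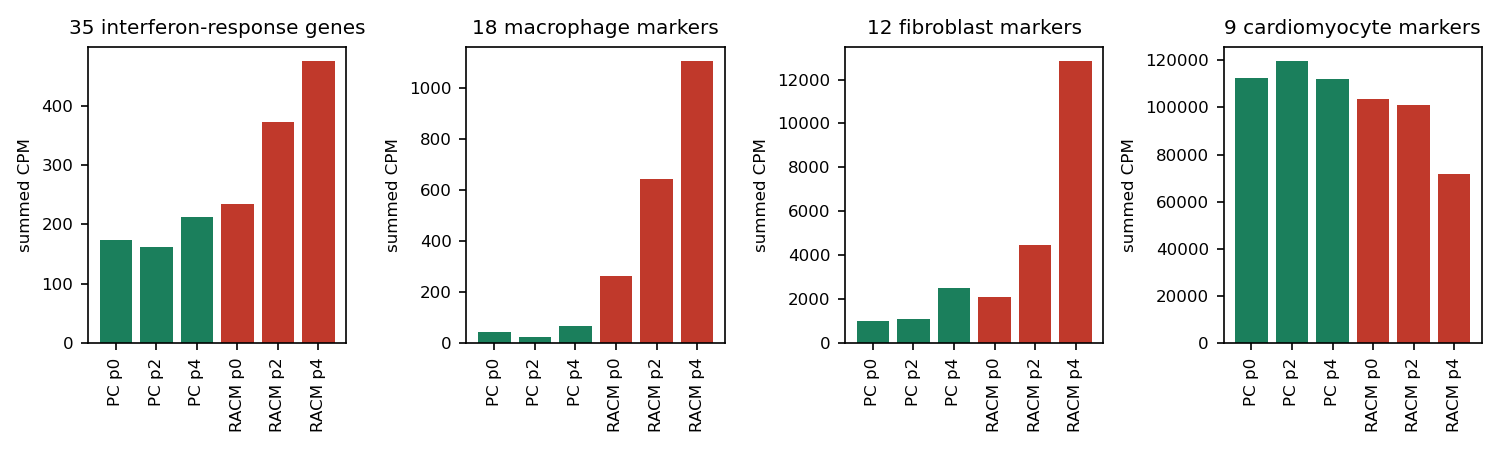
Summed CPM per library (vertical axes, from 0) of the 35 interferon-response genes and of the macrophage, fibroblast and cardiomyocyte marker lists, with 1 bar for each PC (green) and RACM (red) library. The interferon-response sum was 475 CPM in RACM p4, where macrophage markers reached 1104 CPM and fibroblast markers 12840 CPM, and no more than 213 CPM in PC.

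Of the 35 genes, 34 passed the filter on low counts and 10 were lower in PC at an adjusted p below 0.05 (edgeR quasi-likelihood test with Benjamini-Hochberg adjustment over 18015 genes), where 3.57% of all genes tested were lower and 7.27% differed in either direction. None was higher in PC, where 3.69% of all genes were. At an unadjusted p below 0.05, 1 gene was higher (10.8% of all genes) and 19 were lower (10.4% of all genes). The log2 fold change was negative in 30 of the 34 genes, against 49.5% of all genes, and its median was -1.81 over the 34 genes and 0.01 over all genes tested. The filter bears on this reading: 14 of the 35 genes reached its level of 0.527 CPM in every RACM library but not in every PC library, none the other way round, and only 3 of the 10 lower genes reached it in every PC library. In 17 genes all PC libraries lay below all RACM libraries, an arrangement that 13.4% of all genes tested showed, and in 1 gene all lay above (13.5% of all genes). With the p number as a replicate block, 15 genes were lower and none was higher, against 5.60% and 5.96% of all genes. The block added Ddx58, Irf8, Isg20, Gbp2 and Bst2 to the 10. By limma-voom, Ifit2, Ifitm3, Gbp3, Irf5 and Irf7 of the 10 did not pass (adjusted p from 0.0504 to 0.118).

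**Figure D2:**
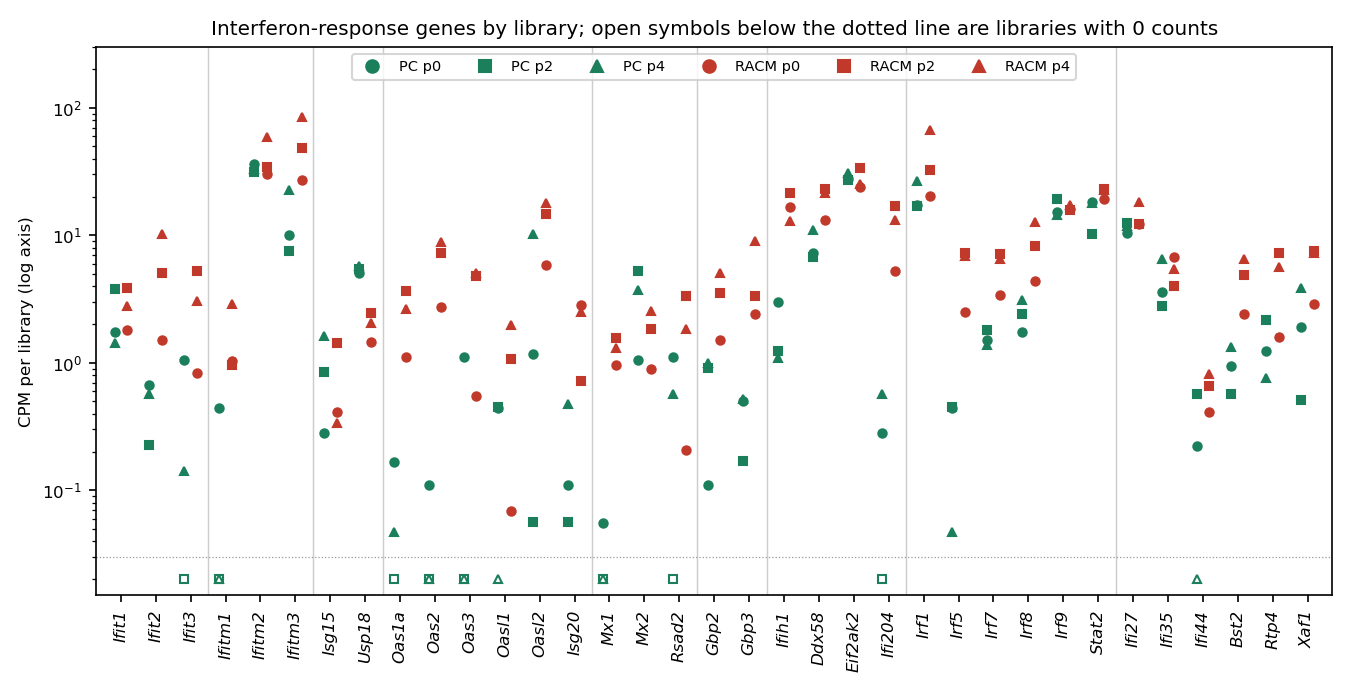
CPM of each interferon-response gene (horizontal axis, grouped by role) in each library on a log axis, PC in green left of RACM in red, with circles for p0, squares for p2 and triangles for p4. Open symbols mark libraries with 0 counts, which occurred in PC for 10 of the 35 genes and in no RACM library.

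Of the 4 sensors and kinase genes, 2 sensors were lower in PC. Ifih1, which encodes MDA5, a cytoplasmic sensor of long double-stranded RNA (ENSMUSG00000026896, mm10 chromosome 2 from 62595798 to 62646255, minus strand), stood at 3.01, 1.24 and 1.09 CPM in PC, against 16.6, 21.4 and 13.0 CPM in RACM. Every PC library lay below every RACM library, and RACM p4 had the lowest RACM value. The log2 fold change was -3.25 ± 0.46 (approximate SE, n = 3 each; edgeR adjusted p = 0.00443). Ifi204, a DNA-binding protein of the PYHIN family (chromosome 1 from 173747293 to 173766943), was at 0.279, 0 and 0.567 CPM in PC, against 5.25, 16.9 and 13.3 CPM in RACM, with no overlap (17 against 635 counts; log2 fold change -5.32 ± 0.88, edgeR adjusted p = 0.00899). Ifih1 kept its call without any single library, while Ifi204 lost it without PC p0 (adjusted p = 0.0525).

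The other RNA sensor and the RNA-dependent kinase did not pass the test. Ddx58, which encodes RIG-I, averaged 8.34 ± 2.36 CPM in PC, against 19.3 ± 5.28 CPM in RACM (SD, n = 3 each) without overlap, and just missed the threshold (log2 fold change -1.21 ± 0.32, edgeR adjusted p = 0.0528; 0.0263 with the replicate block). Eif2ak2, which encodes the kinase PKR that halts translation on sensing double-stranded RNA, stood at 27.9, 27.0 and 30.8 CPM in PC, against 24, 34.0 and 25.2 CPM in RACM. Its libraries overlapped fully (log2 fold change 0.05 ± 0.20, edgeR adjusted p = 0.932), and its sign changed over the alternatives, from -0.10 to 0.26.

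Among transcription factors, Irf5 and Irf7 were lower in PC. Irf5, known from Toll-like receptor signalling in myeloid cells (chromosome 6 from 29526625 to 29541871, plus strand), was at 0.446, 0.452 and 0.0472 CPM in PC, against 2.49, 7.30 and 6.83 CPM in RACM (log2 fold change -4.13 ± 0.82, edgeR adjusted p = 0.0187). Of its exon bases, 14.1% are shared with Tnpo3, and counting without strand cannot separate them. Irf7, which amplifies type I interferon production (chromosome 7 from 141262706 to 141266481), was at 1.51, 1.81 and 1.37 CPM in PC, against 3.38, 7.12 and 6.54 CPM in RACM (log2 fold change -1.86 ± 0.48, edgeR adjusted p = 0.0489). In both genes RACM p0 was the lowest RACM library and still above every PC library. Irf5 lost its call when PC p0, or p2 or p4 of RACM, was left out (adjusted p from 0.0544 to 0.0857). Irf7 lost it when any PC library, or p2 or p4 of RACM, was left out (from 0.0822 to 0.218).

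The other 4 factors did not pass. Irf8, a factor of myeloid development, averaged 2.43 ± 0.695 CPM in PC, against 8.50 ± 4.25 CPM in RACM without overlap (log2 fold change -1.81, edgeR adjusted p = 0.0611; 0.0253 with the replicate block). Irf1, induced by both interferon types, stood at 17.3, 17.0 and 26.8 CPM in PC, against 20.5, 32.7 and 67.2 CPM in RACM. PC p4 lay above RACM p0, and the test was not passed (log2 fold change -0.98 ± 0.40, edgeR adjusted p = 0.201); 20.0% of its exon bases are shared with Gm17334. Irf9 and Stat2, which act together at the ISRE, were at 16.3 ± 2.53 and 15.4 ± 4.54 CPM in PC, against 16.4 ± 0.922 and 21.5 ± 2.07 CPM in RACM. Neither passed (log2 fold changes -0.01 ± 0.22 and -0.48 ± 0.27, edgeR adjusted p = 0.992 and 0.364).

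The OAS enzymes make oligoadenylates that activate RNase L, which cleaves RNA, and Oas2 and Oas1a were close to the counting floor in PC. Oas2 (chromosome 5 from 120730333 to 120749853, minus strand) had 2, 0 and 0 counts in PC, against 40, 122 and 185 counts in RACM, or 2.76, 7.30 and 8.90 CPM. The RACM over PC ratio was 190, with a 95% counting interval from 52.1 to 1570 (edgeR adjusted p = 0.00418). Oas1a, from the same cluster (chromosome 5 from 120896256 to 120907521), had 4 counts over the PC libraries and 132 over the RACM libraries, so that RACM had 36.1 times the level of PC (counting interval from 13.8 to 134; edgeR adjusted p = 0.0219). It was at 0.167, 0 and 0.0472 CPM in PC, against 1.11, 3.65 and 2.65 CPM in RACM.

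Oas3 lies between them on the chromosome (from 120753098 to 120777661) and had all of its 20 PC counts in p0, at 1.11, 0 and 0 CPM in PC, against 0.553, 4.79 and 5.05 CPM in RACM. PC p0 thus lay above RACM p0, and the test was not passed (log2 fold change -3.22 ± 1.44, edgeR adjusted p = 0.241). It passed without both p0 libraries, where no PC count is left (adjusted p = 0.0389), and with no filter (0.0336). Oas2 kept its call without any single library but not without both p2 libraries (adjusted p = 0.0812), and Oas1a lost it when PC p4, or p2 or p4 of RACM, was left out (from 0.0594 to 0.112). No option to count reads that map to several places was set, so the levels of near-identical OAS copies are uncertain.

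The 2 OAS-like genes did not pass. Oasl2 ranged from 0.0566 to 10.2 CPM in PC and from 5.80 to 17.8 CPM in RACM (log2 fold change -1.74 ± 1.11, edgeR adjusted p = 0.433), the highest PC value being p4. Without PC p4 it passed (log2 fold change -4.36, adjusted p = 0.0454). Oasl1, with 16 counts in PC and 60 in RACM, was the gene left out by the filter. Isg20, an RNA exonuclease, averaged 0.213 ± 0.226 CPM in PC, against 2.02 ± 1.14 CPM in RACM without overlap (edgeR adjusted p = 0.0847; 0.0490 with the replicate block).

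The IFIT genes encode proteins that bind foreign RNA and lie close together on chromosome 19, and 1 of the 3 was lower in PC. Ifit2 (from 34550694 to 34576419) was at 0.669, 0.226 and 0.567 CPM in PC, against 1.52, 5.02 and 10.2 CPM in RACM, with no overlap and a wide spread among RACM libraries (log2 fold change -3.50 ± 0.79, edgeR adjusted p = 0.0313). That call was lost when any PC library, or p2 or p4 of RACM, was left out (adjusted p from 0.0722 to 0.142). Ifit1 (from 34640871 to 34650009), with a pair of separate ISRE matches in the stretch printed above, averaged 2.31 ± 1.29 CPM in PC, against 2.80 ± 1.02 CPM in RACM (log2 fold change -0.28 ± 0.58, edgeR adjusted p = 0.839). Ifit3 averaged 0.400 ± 0.575 CPM in PC, against 3.06 ± 2.22 CPM in RACM, overlapped and did not pass (edgeR adjusted p = 0.198). A near-identical copy, Ifit3b, makes its level uncertain.

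The Mx genes encode dynamin-like GTPases that act against viruses, in mouse Mx1 in the nucleus and Mx2 in the cytoplasm. Mx1 (chromosome 16 from 97447035 to 97462907, minus strand) had 1, 0 and 0 counts in PC, against 14, 26 and 27 counts in RACM. The RACM over PC ratio was 73.2, with a counting interval from 12.7 to 2930 (edgeR adjusted p = 0.0171). Its call was lost when any PC library, or p2 or p4 of RACM, was left out (adjusted p from 0.0507 to 0.0947). Its neighbour Mx2 (from 97535308 to 97560900, plus strand), described in full after its values were seen, was at 1.06, 5.26 and 3.73 CPM in PC, against 0.898, 1.85 and 2.55 CPM in RACM. PC p2 and p4 were the highest of the 6 libraries, and the test was not passed (log2 fold change 0.91 ± 0.68, edgeR adjusted p = 0.515). Rsad2, which encodes viperin, averaged 0.561 ± 0.558 CPM in PC, against 1.80 ± 1.57 CPM in RACM (edgeR adjusted p = 0.507).

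Guanylate-binding proteins are GTPases that attack the vacuoles of intracellular microbes. Gbp3 (chromosome 3 from 142560026 to 142573209, plus strand), whose promoter stretch is printed above, was at 0.502, 0.170 and 0.520 CPM in PC, against 2.42, 3.35 and 8.95 CPM in RACM (log2 fold change -3.60 ± 0.74, edgeR adjusted p = 0.0214). Its call was lost when p0 or p2 of PC, or p2 or p4 of RACM, was left out (adjusted p from 0.0557 to 0.118). Gbp2, next to it, was at 0.111, 0.905 and 0.992 CPM in PC, against 1.52, 3.53 and 5.10 CPM in RACM. The libraries did not overlap and the test was not passed (log2 fold change -2.32 ± 0.82, edgeR adjusted p = 0.135; 0.0463 with the replicate block).

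The IFITM proteins sit in membranes and hinder the fusion of viruses, and their genes included the most abundant of the list per exon length. Ifitm3 (chromosome 7 from 141009586 to 141010770, minus strand) was at 9.98, 7.58 and 22.7 CPM in PC, against 27.3, 48.2 and 85.0 CPM in RACM. All PC libraries lay below all RACM libraries, with PC p4 close to RACM p0 (log2 fold change -1.99 ± 0.49, edgeR adjusted p = 0.0431; 0.00283 with the replicate block). Its call was lost when p0 or p2 of PC, or p2 or p4 of RACM, was left out (adjusted p from 0.107 to 0.148). Ifitm2, near it on the chromosome (from 140954837 to 140955987, minus strand), was at 36.1, 31.6 and 33.2 CPM in PC, against 30.0, 34.5 and 58.9 CPM in RACM. Only RACM p4 stood apart, and the test was not passed (log2 fold change -0.29 ± 0.26, edgeR adjusted p = 0.598); 40.9% of its exon bases are shared with Gm45717, and its sign changed over the alternatives, from -0.53 to 0.06. Ifitm1 was at 0.446, 0 and 0 CPM in PC, against 1.04, 0.957 and 2.89 CPM in RACM, and did not pass (8 against 91 counts; log2 fold change -3.43 ± 1.30, edgeR adjusted p = 0.164).

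Neither gene of the ISG15 system passed, and both had positive fold changes. Isg15 is a ubiquitin-like protein that is attached to other proteins, and Usp18 both removes it and dampens signalling from the interferon receptor. Usp18 (chromosome 6 from 121245906 to 121270917, plus strand), described in full after its values were seen, was at 5.02, 5.49 and 5.76 CPM in PC, against 1.45, 2.45 and 2.07 CPM in RACM. It was the 1 gene of the list with all PC libraries above all RACM libraries, and its edgeR adjusted p of 0.0841 missed the threshold (log2 fold change 1.44 ± 0.43), though it passed by DESeq2 (adjusted p = 0.0188). Isg15 averaged 0.911 ± 0.666 CPM in PC, against 0.729 ± 0.613 CPM in RACM, with 3 overlapping ISRE matches in its promoter stretch (log2 fold change 0.33 ± 0.89, edgeR adjusted p = 0.881). Its sign changed over the alternatives, from -0.75 to 1.27.

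None of the 6 other induced genes passed the edgeR test. At an unadjusted p below 0.05, 2 of them were lower, against 10.4% of all genes. Ifi27, a small membrane protein, was at 10.5, 12.4 and 11.9 CPM in PC, against 12.3, 12.3 and 18.4 CPM in RACM, overlapping apart from RACM p4 (log2 fold change -0.31 ± 0.27, edgeR adjusted p = 0.591). Bst2, which encodes tetherin, a protein that holds budding viruses at the cell surface, came closest to the threshold. It averaged 0.945 ± 0.379 CPM in PC, against 4.62 ± 2.08 CPM in RACM without overlap (log2 fold change -2.28 ± 0.59, edgeR adjusted p = 0.0511; 0.0463 with the replicate block). Rtp4, a chaperone of membrane receptors, and Xaf1, a partner of the apoptosis inhibitor XIAP, averaged 1.38 ± 0.709 and 2.09 ± 1.69 CPM in PC, against 4.84 ± 2.94 and 5.92 ± 2.61 CPM in RACM. Ifi35 and Ifi44 averaged 4.27 ± 1.95 and 0.263 ± 0.285 CPM in PC, against 5.40 ± 1.38 and 0.630 ± 0.203 CPM in RACM.

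**Figure D3:**
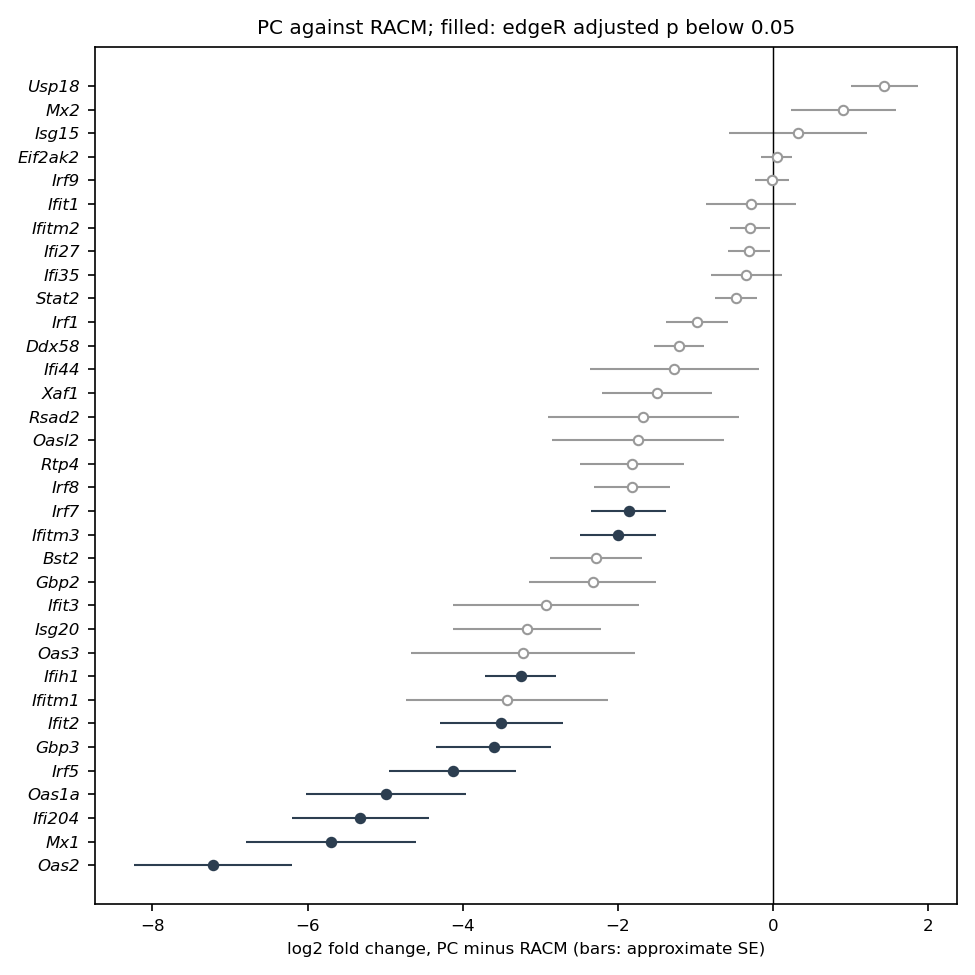
Log2 fold change, PC minus RACM (horizontal axis), of the 34 interferon-response genes tested, with bars for the approximate SE and filled points for an edgeR adjusted p below 0.05. The 10 filled points lie between -7.22 and -1.86, and Usp18 has the highest value at 1.44.

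Compared per kilobase of exon, the levels of the list differed widely between genes and between the cell types. In PC, Ifitm2 was highest at 51.4 CPM per kb, followed by Ifitm3 at 19.8, Ifi27 at 7.90, Eif2ak2 at 5.59 and Irf1 at 5.13 CPM per kb. In RACM, Ifitm3 was highest at 78.9 CPM per kb, followed by Ifitm2 at 62.8, Irf1 at 10.1, Ifi27 at 9.77 and Eif2ak2 at 5.42 CPM per kb. The lowest in PC were Mx1 at 0.00491 and Oas2 at 0.00835 CPM per kb, where RACM had 0.337 and 1.42 CPM per kb. Ifitm2 stood above Ifitm3 in all PC libraries and in RACM p0 (45.8 against 40.2 CPM per kb), and below it in RACM p2 and p4, a difference that was not tested. With 40.9% of its exon bases shared with Gm45717, the level of Ifitm2 per kb, and so its place beside Ifitm3, is uncertain.

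Other genes of the interferon pathway were examined by a list of 121 genes, of which 100 passed the filter. In this list 21 genes were lower and 1 was higher in PC, beside 3.57% and 3.69% of all genes tested. The median log2 fold change was -1.06, as it was with Phf11b, at 0 in every PC library, set to its bound. The filter bears on this list too. A gene could pass it through the RACM libraries alone, as Phf11b and Zbp1 did, and could then hardly come out higher in PC. How many of the list did so is not given here. Under the filter of 5 CPM the median was weaker, as given below. Interferon genes themselves had few or no counts: of 10 ligand genes none passed the filter, 9 had 0 counts in every PC library and 7 had 0 in every RACM library. Ifnb1, the gene of interferon beta, was at 0 in all 6 libraries. The exception in PC was Ifna4, an interferon alpha gene, with 10 counts in PC p2 (0.566 CPM) and 0 in the other 5 libraries. In RACM, Ifng, Ifna2 and Ifnk had counts, and the ligand genes summed to 0.276, 0.12 and 0.0962 CPM.

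The receptors were present in both cell types and few of their signalling genes differed. Ifnar1 was at 56.9, 56.8 and 45.2 CPM in PC, against 48.9, 48.2 and 56.7 CPM in RACM, and did not pass (log2 fold change 0.05, edgeR adjusted p = 0.915). The same held for Ifnar2, Ifngr1, Ifngr2 and Jak1 (log2 fold changes -0.32, -0.81, -0.02 and 0.04; edgeR adjusted p from 0.194 to 0.962), though Ifngr1 passed with the replicate block (log2 fold change -0.78, adjusted p = 0.0466). Of the 15 genes of receptors and proximal signalling, Tyk2, a receptor-bound kinase, was lower and Socs3, a feedback inhibitor of cytokine receptors, was higher. Among all genes tested, 3.57% were lower and 3.69% were higher. Tyk2 was at 6.58, 10.3 and 8.22 CPM in PC, against 19.2, 23.0 and 16.5 CPM in RACM (log2 fold change -1.22 ± 0.27, edgeR adjusted p = 0.0290). Its call was lost when p0 or p4 of PC, or p0 or p2 of RACM, was left out (adjusted p from 0.0616 to 0.148). Socs3 was at 92.5, 124 and 99.6 CPM in PC, against 33.6, 37.9 and 47.4 CPM in RACM (log2 fold change 1.41 ± 0.19, edgeR adjusted p = 0.00374). That call held without each single library, but not without both p2 libraries (adjusted p = 0.0945). Ptpn6 of the same group did not pass the main test. It was lower with the replicate block (log2 fold change -3.65, adjusted p = 0.0473), by DESeq2 (adjusted p = 0.00181) and with no filter (adjusted p = 0.001).

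Sensors and induced genes outside the list that passed the test were all lower in PC. Of 15 genes of nucleic acid sensing and its adaptors tested, 3 were lower, against 3.57% of all genes. Tlr7, an endosomal sensor of RNA, was at 0.669, 0.113 and 0.331 CPM in PC, against 3.80, 11.2 and 17.8 CPM in RACM (log2 fold change -4.86 ± 0.77, edgeR adjusted p = 0.00748; 0.0604 by limma-voom). Zbp1, a sensor of Z-form nucleic acid, was at 0.111, 0.0566 and 0.0472 CPM in PC, against 0.898, 2.57 and 3.75 CPM in RACM (log2 fold change -4.96 ± 0.89, edgeR adjusted p = 0.0129), a call lost when p2 or p4 of RACM was left out (adjusted p = 0.0600 and 0.0690). The third was Dhx58, a relative of Ddx58 (log2 fold change -3.26, edgeR adjusted p = 0.0341). Its call was lost with the replicate block (0.0555) and when any PC library, or p2 or p4 of RACM, was left out (from 0.0764 to 0.178). The adaptor gene Mavs, through which Ifih1 and Ddx58 signal, averaged 42.2 ± 10.4 CPM in PC, against 37.2 ± 7.87 CPM in RACM and did not pass (log2 fold change 0.18, edgeR adjusted p = 0.736). Of 55 further induced genes, 13 were lower and none higher, against 3.57% and 3.69% of all genes. None was higher at an unadjusted p below 0.05 either, against 10.8% of all genes. The smallest p were those of Shisa5 and Helz2. Shisa5, a membrane protein, was at 9.09, 8.88 and 8.65 CPM in PC, against 21.7, 23.4 and 37.6 CPM in RACM (log2 fold change -1.64 ± 0.27, edgeR adjusted p = 0.00819). Helz2, a helicase, was at 3.74, 3.11 and 4.39 CPM in PC, against 10.3, 23.1 and 20.1 CPM in RACM (log2 fold change -2.25 ± 0.37, edgeR adjusted p = 0.00857), and lost its call without RACM p2 (adjusted p = 0.0518). In both genes all PC libraries lay below all RACM libraries. With the replicate block, 19 of the 55 were lower, against 5.60% of all genes. Of the IRF genes outside the list 2 were tested, and neither passed. Irf2, a repressor of interferon genes, was at 20.4, 17.4 and 18 CPM in PC, against 18.4, 19.5 and 19.6 CPM in RACM (log2 fold change -0.05 ± 0.20, edgeR adjusted p = 0.929).

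Of 13 genes of antigen presentation, which interferons raise, 4 were lower in PC and none was higher, against 3.57% and 3.69% of all genes. B2m, the light chain of class I molecules, was at 38.4, 16 and 46.9 CPM in PC, against 159, 197 and 341 CPM in RACM (log2 fold change -2.78 ± 0.42, edgeR adjusted p = 0.00588). H2-K1, a class I heavy chain, was at 12, 5.26 and 18.2 CPM in PC, against 58.7, 62.3 and 86.1 CPM in RACM (log2 fold change -2.54 ± 0.40, edgeR adjusted p = 0.00716). Both had no overlap and kept their calls without each single library, but not without both p0 libraries (adjusted p = 0.0579 for B2m and 0.0865 for H2-K1). The others were H2-D1, another heavy chain (log2 fold change -2.66, edgeR adjusted p = 0.0144), and Psmb8, a subunit of the immunoproteasome (log2 fold change -4.85, edgeR adjusted p = 0.0102). H2-D1 lost its call without PC p0 or PC p2 (adjusted p = 0.0699 and 0.0564), and Psmb8 lost it without RACM p4 (0.0643) and by limma-voom (0.0598). The peptide-loading gene Tapbp and the other proteasome genes Psmb10, Psme1 and Psme2 had log2 fold changes between 0.23 and 0.44 and did not pass, and Psmb9 had one of -2.72 and did not pass either. The summed level of the 13 genes was 251, 209 and 278 CPM in PC, against 436, 462 and 685 CPM in RACM, beside macrophage sums of 44.0, 25.1 and 67.6 CPM in PC, against 261, 643 and 1104 CPM in RACM, whose part was not tested.

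**Figure D4:**
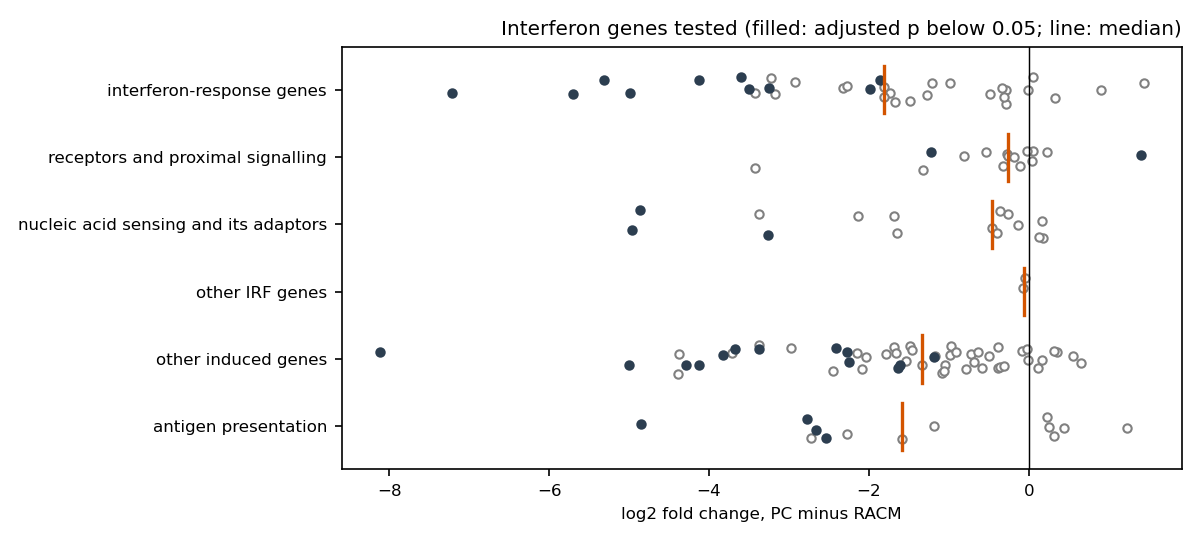
Log2 fold change, PC minus RACM (horizontal axis), of the interferon-response genes and of the other interferon pathway genes tested, by group (rows), with filled points for an edgeR adjusted p below 0.05 and an orange line at each median. The median was -1.81 for the interferon-response genes and -0.26 for receptors and proximal signalling, where Socs3 is the filled point at 1.41.

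The p number was compared across both cell types. No interferon-response gene passed the edgeR test of the p number (quasi-likelihood F test with cell type as a covariate), where 0.00555% of all genes tested did (1 of 18015). At an unadjusted p below 0.05 there were 2 of the 34 genes, against 11.9% of all genes. These were Ifitm3 (edgeR adjusted p = 0.192) and Irf1 (edgeR adjusted p = 0.264). By limma-voom no gene of the list passed either, with 7 of 34 at an unadjusted p below 0.05, against 15.2% of all genes. The coefficient of p4 against p0 was 1.40 for Ifitm3 and 1.16 for Irf1 on the log2 scale. Both genes were highest in p4 in each cell type, as the values above show. Gbp2 had the next smallest p (edgeR adjusted p = 0.447).

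Within RACM, where each number has 1 library and no test is possible, p0 was the lowest library for 27 of the 34 genes tested, against 37.0% of all genes. The order p0 below p2 below p4 held in RACM for 13 of the 34, against 22.4% of all genes, and in PC for 4, against 14.4%. In PC, p0 was the lowest library for 6 of the 34, against 29.6% of all genes. Highest in RACM p4 were 16 of the 34 (34.9% of all genes), and another 16 were highest in RACM p2 (5276 of all 18015 genes tested). The RACM p4 over p0 ratio of CPM was 6.74 for Ifit2 and 3.70 for Gbp3, and 0.780 for Ifih1. The macrophage and fibroblast sums, among those of other marker lists, rose in the order p0, p2, p4 in RACM as given above, and their part was not tested.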

How the data were processed

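The deposited table holds raw fragment counts per gene, which the authors obtained with featureCounts 2.0.1 from mm10 exons, per the file headers, without setting options for strand or for multiply mapped reads. Per the labels' protocols, the RNA had been amplified (Ovation RNA-Seq System V2) and read as pairs of 100 bases. The submitters' processing notes name Trimmomatic, HISAT2 and edgeR. Exon lengths of the deposited table gave CPM per kb. Of 55487 gene IDs, 55141 matched a symbol.

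Genes kept by filterByExpr (minimum count 10, minimum total 15), 18015 in number, were normalized by TMM and tested 2-sided by the quasi-likelihood method of edgeR 4.0.16 under R 4.3.3. Fold changes are PC over RACM, with p-values adjusted over all genes tested. The approximate SE is the log2 fold change divided by the root of F. Counting intervals are exact binomial at 95% and cover counting error only. Alternatives comprised other scalings (RLE, upper quartile), other filters (none, or 5 CPM), the replicate block, DESeq2 1.42.0, limma-voom (limma 3.58.1) and left-out libraries. The edgeR, DESeq2 and limma-voom fits of cell type were first tested on simulated data at the main filter. So were the edgeR and limma-voom fits of the p number. The replicate block, the other scalings, the other filters and the left-out libraries were not tested so.

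The labels call each pool a biological replicate and do not tie PC pools to RACM pools. Deviations from the mean of each cell type correlated between libraries of the same number by 0.219, 0.306 and 0.281 (p0, p2, p4). On this evidence of the data alone, the numbers were used to pair libraries in the replicate block. The main test of PC against RACM did not use the pairing. The pairing was read from the same counts that the block fit tests, so that fit is no independent check. No replicate repeated another (chi-square over degrees of freedom from 26.2 to 65.6). The genes and lists were chosen with earlier results of these data known. Values in every library are given for interferon-response genes past 0.05, the 10 largest changes, the 5 highest levels per length and the 3 smallest p for the p number. In each pathway group with genes tested they are given for the 2 smallest p, apart from the other IRF genes, where Irf2 alone is given so. Other genes so described were chosen after their values were seen. ATAC-seq (7 samples) was not used here. Some genes of the pathway list are not reported here by name.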

Additional observations from a re-analysis of the deposited data

How the results depend on the processing

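Against 1309 genes called in all, 2339 were called with no filter, 2082 with the replicate block, 2304 by DESeq2 and from 171 to 1338 with libraries left out. Of the interferon-response genes, 10 were lower in PC, against 17 with no filter, 4 of 11 tested under the filter of 5 CPM, 5 by limma-voom and from 0 to 13 with libraries left out; 0 were higher, against 1 by DESeq2, and 0 in every fit with libraries left out. The count was 0 without both p2 libraries, and 3 without PC p0, without RACM p2 or without RACM p4. All 10 kept their calls under RLE and upper-quartile scaling, no filter, DESeq2 and the replicate block, which called 15. Their median log2 fold change of -1.81 became -1.04 under the filter of 5 CPM, which tests fewer genes, -2.09 by limma-voom, and from -2.18 to -1.57 with libraries left out. Of the pathway list, 21 were lower, against 35 with no filter, 13 under the filter of 5 CPM, 35 by DESeq2 and from 2 to 23 with libraries left out, and 1 was higher, against 0 to 1 with libraries left out. Its median of -1.06 became -1.19 with no filter, -0.45 under the filter of 5 CPM, and from -1.25 to -0.74 with libraries left out. For PC against RACM, the share of all genes called under the filter of 5 CPM (10845 genes tested) or by limma-voom is not given here. Counts of list genes in those fits therefore stand without that comparison. The p number called 1 gene, against 54 under the filter of 5 CPM and 170 by limma-voom, none of them an interferon-response gene. Without Ifitm2 the mean summed level was 149 CPM in PC and 320 CPM in RACM. Where no construction is named, the cause was not tested. For genes with fewer than 10 counts in PC, such as Mx1 and Oas2, the depth of the libraries limits how exactly the ratio is known.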

Other observations

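Cxcl10, an interferon-induced chemokine of the pathway list, was chosen after its values were seen, for its order over the p numbers. At p0, p2 and p4 it was at 1.95, 5.66 and 18.5 CPM in PC, against 9.46, 30.1 and 72.0 CPM in RACM. Its level was higher at each later number in both cell types, and PC p4 lay above RACM p0. The coefficient of p4 against p0 was 3.08 on the log2 scale. The edgeR test of the p number gave an adjusted p of 0.0529, which does not pass, and limma-voom one of 0.0154. Within 1 cell type each number has 1 library, so no test is possible there. Limma-voom also called Ifi207 and H2-D1 of the pathway list (adjusted p = 0.0220 and 0.0329). Of the exon bases of Cxcl10, 5.91% are shared with Art3. What the number stands for is not given in the labels.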
